A study of Mus musculus with 15 samples.

Results

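The genes described here encode leukocyte integrin subunits, the transmembrane chains with which blood and immune cells hold on to vessel walls, matrix and each other. The members were named by gene symbol, with earlier results of these data known, as *Itga4*, *Itga5*, *Itga6*, *Itgae*, *Itgal*, *Itgam*, *Itgax*, *Itga2b*, *Itgb1* and *Itgb2*, and the rule itself uses no measured value. Of these 10, 9 had a row among the 561 genes of the count table, and all 9 passed the filter on low counts (a mean of at least 20 raw counts over the 15 samples) that left 426 genes for testing. *Itgae* was not analysed here. *Itga5* passed with a mean of 30.5 raw counts, which was 17.5 without RCI replicate 3, so it entered the test through that sample.

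An integrin is a heterodimer of an alpha and a beta subunit, and neither chain reaches the cell surface in quantity without a partner. The beta1 chain (*Itgb1*) pairs with alpha4 to make VLA-4, a receptor for VCAM-1 and fibronectin on lymphocytes and monocytes, with alpha5 to make the classical fibronectin receptor, and with alpha6 to make a laminin receptor. The leukocyte beta2 chain (*Itgb2*, CD18) pairs with alphaL (*Itgal*, CD11a) in LFA-1, the main ICAM receptor of lymphocytes, with alphaM (*Itgam*, CD11b) in Mac-1 on neutrophils, monocytes and macrophages, and with alphaX (*Itgax*, CD11c) on dendritic cells and some macrophages. *Itga2b* (CD41) is the platelet and megakaryocyte chain, whose beta3 partner was not analysed here.

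Spleen RNA of female C57BL/6J mice was counted with the nCounter Mouse Immunology Panel, in which colour-coded probes are counted without amplification. Each of the 5 groups had 3 samples. Sham mice went through the procedure without burn or irradiation, WBIR mice were irradiated over the whole body with 9 Gy from a cesium source (whole-body ionizing radiation), and RCI (radiation combined injury) mice were given the same dose and a burn over 20% of their surface under anesthesia and morphine. In the WBIR+MSC-EVs and RCI+MSC-EVs groups, extracellular vesicles of mouse mesenchymal stem cells were injected into the tail vein 72 hours after injury, and spleens were taken 48 hours later. The labels name PBS as the vehicle of the RCI group only, while the text of the study gives saline for untreated mice. Red cells were lysed before RNA was isolated from the cell suspension.

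Total counts ranged from 90127 to 598872 per sample, and values below are raw counts divided by the sample's scale factor from 14 reference genes ("scaled counts"). The reference genes themselves varied between samples. Relative to the mean of all 14, their log2 standard deviation ran from 0.16 for *Sdha* to 1.18 for *Tubb5* and 1.22 for *G6pdx*. Log2 fold changes (log2FC) came from edgeR's quasi-likelihood test with its standard error (SE), and a gene was called at a Benjamini-Hochberg adjusted p under 0.05. Because probes differ in efficiency, counts were compared between samples for a gene and not between genes. Samples that stood apart from their groups were RCI replicate 3, Sham replicate 2 and WBIR+MSC-EVs replicate 1. In RCI replicate 3 the summed count of 8 macrophage and monocyte markers was 39540, against 17310 and 18750 in the other RCI samples. *Marco* alone made this difference, since the other 7 markers summed to 9297, against 13810 and 13630. The 5 dendritic cell markers of that sample summed to 703.7, against 1791 and 1688. In Sham replicate 2, 12 T cell markers summed to 26240, against 14280 and 14210 in the other Sham samples, and 7 neutrophil markers to 44680, against 7903 and 27140. The smallest total, 90127 counts, was that of WBIR+MSC-EVs replicate 1. Its neutrophil markers summed to 10180, against 2632 and 1957 in the other samples of its group, and its macrophage and monocyte markers to 12590, against 24310 and 22900. Without it the number of members called was the same in every comparison. Results of the members that rest on one of the other samples named are given without that sample too.

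Cell markers differed widely between Sham and the irradiated groups, and their part in the integrin results was not tested. All 12 T cell markers and all 9 B cell markers were called lower in WBIR and in RCI against Sham. T cell markers summed to 14210 to 26240 in Sham and 2132 to 4710 over the 4 irradiated groups, and B cell markers to 17900 to 20460 and 767 to 1668. Macrophage and monocyte markers went the other way, from 2236 to 3160 in Sham to 11440 to 39540 over the irradiated groups. Neutrophil markers ran from 7903 to 44680 in Sham and from 1478 to 10180 after irradiation. No marker was listed at 0, although a count of 0 may be stored as 1 in this table. In bulk RNA of this kind, fewer cells of a type and less RNA per cell cannot be told apart.

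In all 4 irradiated groups some integrin genes were called lower and others higher than Sham, as was so over the whole panel. *Itga4*, *Itga6* and *Itgal* were called lower than Sham in every one of the 4 comparisons, and *Itgb1* was called higher in every one. *Itgb2* was called higher in both WBIR groups, and *Itga2b* in both RCI groups. Against Sham, 5 of the 9 members were called in WBIR, beside 68.5% of all 426 genes tested, with 2 higher (21.6% of all genes) and 3 lower (46.9%). The count was 5 in WBIR+MSC-EVs (67.8% of all genes), with 2 higher (22.8%) and 3 lower (45.1%). In RCI it was 6 (69.5%), with 3 higher (26.5%) and 3 lower (43%), and in RCI+MSC-EVs 5 (65.3%), with 2 higher (23.9%) and 3 lower (41.3%). With reference gene scaling the share of members called was below that of the panel in each, which did not hold with the other scaling given below. RCI also had 6 called members without its replicate 3, but then with *Itgax* in place of *Itga5*, which passed the count filter only through that sample. Samples of a group did not overlap with Sham for 3 members in WBIR (71.1% of all genes), 5 in WBIR+MSC-EVs (69%), 4 after RCI (64.6%) and 4 after RCI with MSC-EVs (70.4%). The median log2FC of the members was -0.46 in WBIR and 0.62 in RCI, beside -0.74 and -0.53 over all genes tested. These comparisons share the same 3 Sham samples. With TMM scaling over the endogenous genes the median of all genes in WBIR against Sham moved to -0.19, with 126 genes higher and 167 lower in place of 92 and 200, and all later values use the reference gene scaling unless stated. Under TMM scaling *Itga4* was called lower in all 4 comparisons, *Itga6* in the 3 other than WBIR and *Itgal* in RCI+MSC-EVs alone, while *Itgb1*, *Itgb2*, *Itgax* and *Itga2b* were called higher in all 4. *Itga5* (2.19) and *Itgam* (1.75, edgeR adjusted p 0.045) were then called higher in RCI as well. Under TMM scaling the share of members called was below that of the panel in WBIR alone. In RCI 6 members were then higher and 2 lower, beside 70.4% of all genes called.

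**Figure D1:**
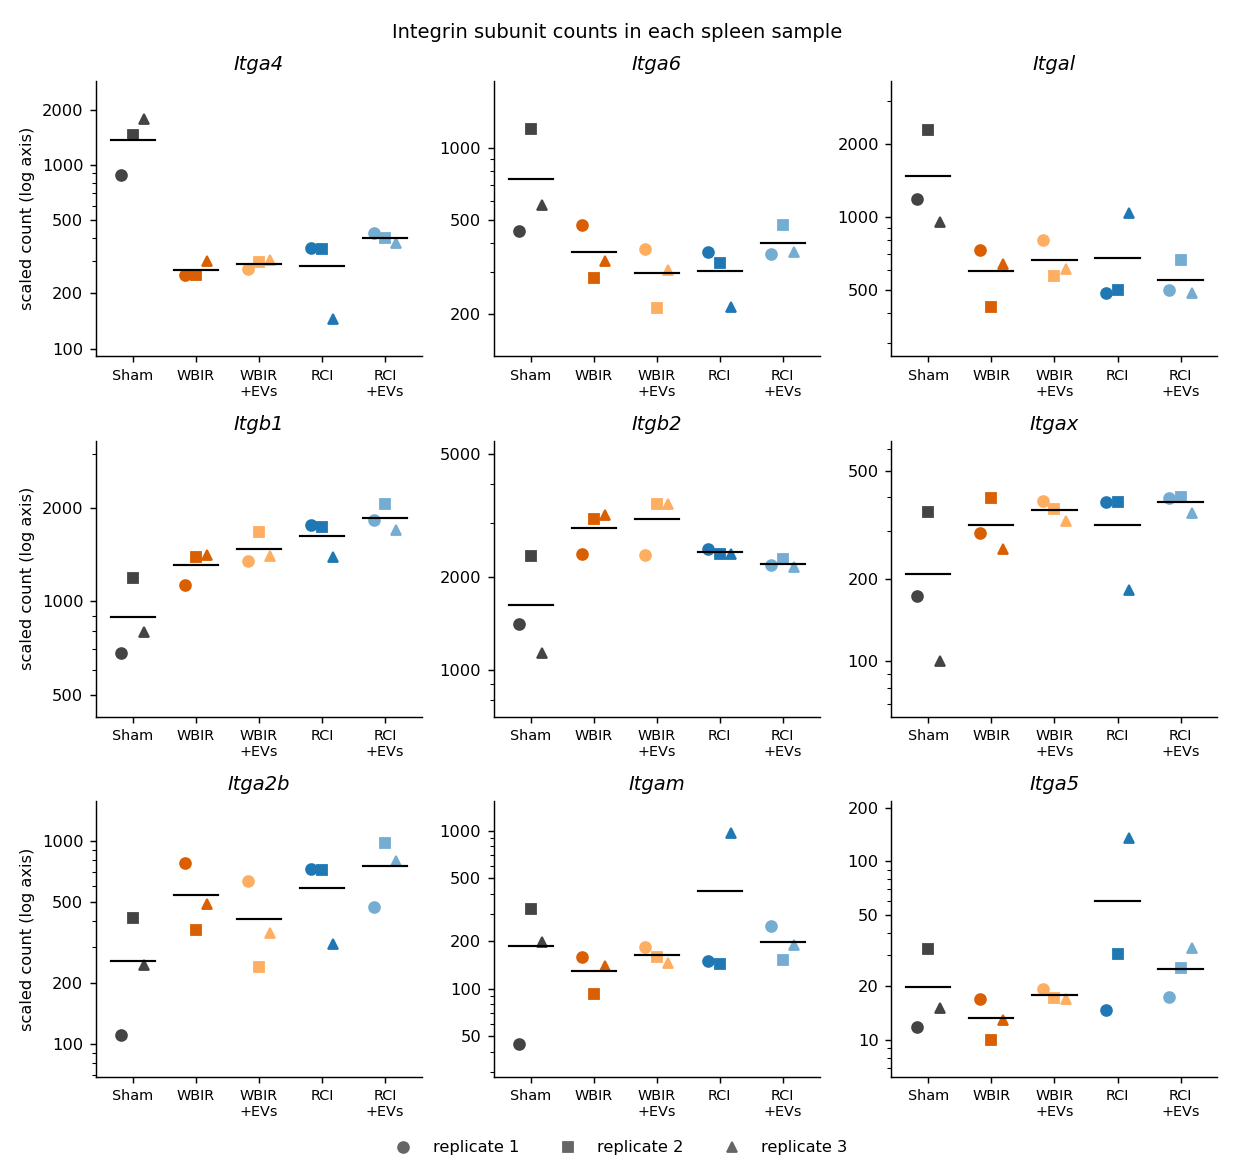
Scaled counts of the 9 integrin subunit genes (vertical log axis) in each of the 15 spleen samples, by group; symbols mark the replicate number and the horizontal line is the mean of 3. All 12 irradiated samples lie below all Sham samples for *Itga4*, while the RCI means of *Itgam* and *Itga5* are carried by replicate 3, at 963 and 136 scaled counts.

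*Itga4*, the alpha chain of VLA-4, had the largest fall of the members. It had 879.8, 1456 and 1786 scaled counts in Sham replicates 1 to 3. Its WBIR samples had 252, 252 and 299, and its WBIR+MSC-EVs samples 272, 296 and 303. In RCI it stood at 355, 350.2 and 145, and in RCI+MSC-EVs at 425, 401 and 374. Every irradiated sample lay below every Sham sample, and the lowest of the 12 was RCI replicate 3. The log2FC against Sham was -2.36 ± 0.32 (SE) in WBIR (edgeR adjusted p 2.3e-05), -2.24 ± 0.32 in WBIR+MSC-EVs (3.8e-05), -2.28 ± 0.32 after RCI (2.9e-05) and -1.78 ± 0.32 after RCI with MSC-EVs (0.00022). The fall was called under every scaling, tool and left-out sample that was run, with log2FC from -2.60 to -1.54 when a sample was left out. In the order of group means Sham was followed by RCI+MSC-EVs, WBIR+MSC-EVs, RCI and WBIR, and the last 3 of these overlapped.

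*Itgb1*, the beta chain that VLA-4 shares with the fibronectin and laminin receptors, moved the opposite way to *Itga4*. Sham samples had 679.6, 1189 and 797 scaled counts of *Itgb1*. WBIR samples had 1126, 1391 and 1407, and RCI samples 1772, 1735 and 1388. With MSC-EVs the counts were 1348, 1681 and 1397 after WBIR and 1838, 2059 and 1699.6 after RCI. Only WBIR replicate 1 overlapped with the Sham range, just under Sham replicate 2. *Itgb1* rose by 0.56 ± 0.23 in WBIR (edgeR adjusted p 0.041), 0.74 ± 0.23 in WBIR+MSC-EVs (0.011), 0.88 ± 0.23 after RCI (0.0034) and 1.07 ± 0.23 after RCI with MSC-EVs (0.00096). The WBIR call was lost when Sham replicate 1 (log2FC 0.40), Sham replicate 3 (0.49), WBIR replicate 2 (0.52) or WBIR replicate 3 (0.51) was left out, while with TMM scaling it was 1.07 (adjusted p 7.0e-05).

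The promoters of this oppositely moving pair are shown to compare them, as the 250 bases before the RefSeq start on mouse build GRCm38.p6. The window of *Itga4* lies at chr2:79255176-79255425 on the plus strand and that of *Itgb1* at chr8:128685404-128685653 on the plus strand. Capitals mark matches, on either strand, to the 4 motifs searched, of which GAGGAA is the core of the PU.1 box of myeloid genes. The motif of the erythroid and megakaryocyte factor was searched as AGATAA. The GC box was searched as GGGCGG, and for the TATA box the letters were TATAAA.
Itga4: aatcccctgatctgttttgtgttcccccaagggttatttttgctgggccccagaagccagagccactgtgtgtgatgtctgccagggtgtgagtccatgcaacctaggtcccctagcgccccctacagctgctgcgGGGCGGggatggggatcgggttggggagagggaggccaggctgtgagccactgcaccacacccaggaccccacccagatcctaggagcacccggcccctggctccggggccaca
Itgb1: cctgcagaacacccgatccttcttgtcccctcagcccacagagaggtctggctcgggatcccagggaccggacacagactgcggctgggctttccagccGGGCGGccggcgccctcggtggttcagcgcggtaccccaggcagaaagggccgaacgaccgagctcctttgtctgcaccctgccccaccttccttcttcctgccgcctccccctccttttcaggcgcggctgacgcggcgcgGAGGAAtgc
Both windows hold 1 GC box, which 33% of 32544 promoters of the same length hold, and neither holds TATAAA, found in 12.3%. *Itgb1* has 1 GAGGAA, found in 23.4% of promoters, starting 9 bases before the start site, and *Itga4* has none. Both are rich in G and C, at 64.0% for *Itga4* and 68.0% for *Itgb1*, against a median of 52.4% over all promoters. Of the members, 6 had an entry in the promoter table.

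*Itga6*, the laminin-receptor alpha chain also found on platelets and early blood cells, was lower after irradiation with more overlap. Sham samples had 448, 1197 and 578 scaled counts, with replicate 2 far above the others. After WBIR the counts were 475, 284 and 334, and with MSC-EVs 375, 212 and 308. After RCI they were 365, 329 and 214, and with MSC-EVs 359, 475 and 365. In WBIR and in RCI+MSC-EVs 1 sample each reached into the Sham range, and the other irradiated groups lay below all Sham samples. The log2FC was -1.02 ± 0.36 in WBIR (edgeR adjusted p 0.021), -1.32 ± 0.36 in WBIR+MSC-EVs (0.0053), -1.29 ± 0.36 after RCI (0.0054) and -0.88 ± 0.36 after RCI with MSC-EVs (0.042). Without Sham replicate 2 it was -0.50 in WBIR and -0.36 in RCI+MSC-EVs and neither was called. The WBIR call was also lost without WBIR replicate 2 (-0.87) or 3 (-0.96) and the RCI+MSC-EVs call without its replicate 1 (-0.81) or 3 (-0.82). With TMM scaling *Itga6* in WBIR was -0.44 (adjusted p 0.13).

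*Itga5*, the fibronectin-receptor alpha chain, was measured near the low end of the assay. Raw counts were 12 to 18 in Sham and 9 to 14 in WBIR. The RCI samples had 14.8, 30.3 and 136 scaled counts, against 11.8, 32.3 and 15.2 in Sham, so that replicate 3 alone stood above the Sham range. The log2FC in RCI of 1.75 ± 0.66 (edgeR adjusted p 0.029) became 0.30 ± 0.49 (adjusted p 0.60) without RCI replicate 3, and the call was also lost without Sham replicate 1 (1.48) or Sham replicate 3 (1.61). In WBIR *Itga5* had a log2FC of -0.46 ± 0.72 (adjusted p 0.57), in WBIR+MSC-EVs -0.05 ± 0.71 (0.95) and in RCI+MSC-EVs 0.46 ± 0.68 (0.57), none of them called, and the first 2 were above 0 with TMM scaling (0.026 and 0.33).

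*Itgb2*, the common chain of the leukocyte integrins LFA-1 and Mac-1, was higher after irradiation, with the higher means in the WBIR groups. Sham samples had 1408, 2336 and 1134 scaled counts. WBIR samples had 2373, 3075 and 3172, and WBIR+MSC-EVs samples 2363, 3437 and 3441. The 3 RCI samples lay close together at 2465, 2372 and 2372, and those with MSC-EVs at 2189.6, 2285 and 2165. In WBIR, WBIR+MSC-EVs and RCI all samples lay above all Sham samples, while RCI+MSC-EVs overlapped with Sham replicate 2. *Itgb2* rose by 0.82 ± 0.27 in WBIR (edgeR adjusted p 0.013) and 0.93 ± 0.27 in WBIR+MSC-EVs (0.0070). Its log2FC was 0.57 ± 0.27 in RCI (0.072) and 0.45 ± 0.27 in RCI+MSC-EVs (0.15), neither called. Without Sham replicate 3 the WBIR value was 0.62 and no longer called, and without Sham replicate 2 the RCI values were 0.92 and 0.80 and both were called.

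*Itgal*, the LFA-1 alpha chain and a lymphocyte-rich integrin, was lower after irradiation, unlike its partner *Itgb2*. Sham samples had 1183, 2268 and 951 scaled counts of *Itgal*. WBIR samples had 726, 424 and 640.3, and WBIR+MSC-EVs samples 798, 569 and 611. RCI samples had 483, 499 and 1040.2, and RCI+MSC-EVs samples 499, 660.3 and 483. RCI replicate 3 was the only irradiated sample within the Sham range. The log2FC of *Itgal* was -1.29 ± 0.37 in WBIR (edgeR adjusted p 0.0061), -1.16 ± 0.37 in WBIR+MSC-EVs (0.012), -1.12 ± 0.37 after RCI (0.014) and -1.42 ± 0.37 after RCI with MSC-EVs (0.0037). Without RCI replicate 3 the RCI value was -1.57 ± 0.36 (adjusted p 0.0015). The RCI call was lost without Sham replicate 2 (-0.66), RCI replicate 1 (-0.93) or RCI replicate 2 (-0.94), and that of WBIR+MSC-EVs without Sham replicate 2 (-0.70). With TMM scaling *Itgal* was -0.74 in WBIR (adjusted p 0.080), -0.73 in WBIR+MSC-EVs (0.087) and -0.69 in RCI (0.0996), so these calls rest on the scaling.

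*Itgam*, the Mac-1 alpha chain of neutrophils, monocytes and macrophages, ranged widely within Sham and within RCI. Sham samples had 44.6, 320.2 and 199 scaled counts. WBIR samples had 159.7, 92.3 and 139, and WBIR+MSC-EVs samples 184, 160.3 and 146. RCI samples had 149.7, 145 and 963, and RCI+MSC-EVs samples 252, 153 and 189. Apart from RCI replicate 3, every irradiated sample lay within the Sham range. The log2FC against Sham was -0.50 ± 0.70 in WBIR (edgeR adjusted p 0.53), -0.18 ± 0.70 in WBIR+MSC-EVs (0.84), 1.19 ± 0.70 after RCI (0.14) and 0.10 ± 0.70 after RCI with MSC-EVs (0.91). Without RCI replicate 3 the RCI value turned to -0.32 ± 0.55 (adjusted p 0.62). The sign in WBIR and in WBIR+MSC-EVs turned with TMM scaling (0.081 and 0.28) and without Sham replicate 2 (0.092 and 0.41), so no direction is given for *Itgam*.

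*Itgax*, the CD11c chain, lay above the Sham mean in every irradiated group without being called. Sham samples had 174, 353 and 100.4 scaled counts. WBIR samples had 295, 396 and 257, and WBIR+MSC-EVs samples 388, 363 and 327. RCI samples had 384, 383 and 182, and RCI+MSC-EVs samples 398, 401 and 349.5. All groups overlapped with Sham through Sham replicate 2, and RCI replicate 3 had the lowest irradiated value. The log2FC was 0.62 ± 0.39 in WBIR (edgeR adjusted p 0.16), 0.81 ± 0.39 in WBIR+MSC-EVs (0.078), 0.62 ± 0.39 after RCI (0.16) and 0.90 ± 0.39 after RCI with MSC-EVs (0.053). Without Sham replicate 2 *Itgax* was called in all 4 comparisons, at 1.21, 1.39, 1.2 and 1.48, and without RCI replicate 3 it was called in RCI, at 0.91 ± 0.37 (adjusted p 0.041). Over the 5 dendritic cell markers the summed count was 3167 to 3501 in Sham and 703.7 to 1858 in the irradiated groups. Of the 4 dendritic cell markers tested, *Ccr7* and *Cd83* were called lower and *Batf3* higher in all 4 comparisons, and *Irf8* was not called. With TMM scaling *Itgax* was called higher in all 4 comparisons, at 1.2, 1.25, 0.93 and 1.11.

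*Itgam* and *Itgax* are neighbouring genes in the RefSeq annotation, with no protein-coding gene between them, and they moved apart in RCI replicate 3. Their promoters are shown for that reason, with the same windows, build and capitals as above. That of *Itgam* lies at chr7:128062390-128062639 and that of *Itgax* at chr7:128129300-128129549, both on the plus strand.
Itgam: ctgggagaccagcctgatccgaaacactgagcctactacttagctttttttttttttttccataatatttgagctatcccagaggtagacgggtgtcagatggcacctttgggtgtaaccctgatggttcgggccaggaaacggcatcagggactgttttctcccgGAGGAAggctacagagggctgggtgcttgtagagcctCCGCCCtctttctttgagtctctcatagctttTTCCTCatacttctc
Itgax: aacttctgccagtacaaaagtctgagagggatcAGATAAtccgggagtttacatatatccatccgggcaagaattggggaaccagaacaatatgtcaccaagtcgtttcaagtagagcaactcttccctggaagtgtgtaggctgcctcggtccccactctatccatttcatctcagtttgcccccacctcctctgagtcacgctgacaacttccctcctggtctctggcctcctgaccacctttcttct
The *Itgam* window has 2 GAGGAA matches, starting 84 bases before the start on the plus strand and 15 bases before it on the minus strand (read there as TTCCTC), and 1 GC box. The *Itgax* window has no GAGGAA, and 1 AGATAA, a motif found in 9.97% of all promoters. Neither holds TATAAA, and the G and C content of *Itgam*, 49.6%, is near the median of all promoters.

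*Itga2b*, the CD41 chain of megakaryocytes and platelets, was called higher in both RCI groups. Sham samples had 110.1, 417 and 243 scaled counts. WBIR samples had 773, 364 and 486, and WBIR+MSC-EVs samples 637, 239.9 and 351. RCI samples had 725, 719 and 312, and RCI+MSC-EVs samples 471, 978 and 796. Only RCI+MSC-EVs lay wholly above Sham. *Itga2b* rose by 1.21 ± 0.51 in RCI (edgeR adjusted p 0.046) and 1.57 ± 0.51 in RCI+MSC-EVs (0.015). Its log2FC was 1.10 ± 0.51 in WBIR (0.067) and 0.68 ± 0.51 in WBIR+MSC-EVs (0.25), neither called. Without RCI replicate 3 the RCI value was 1.52 ± 0.51 (adjusted p 0.016). The RCI call was lost without Sham replicate 1 (0.84), Sham replicate 3 (1.18), RCI replicate 1 (1.02) or RCI replicate 2 (1.03), that of RCI+MSC-EVs without Sham replicate 1 (1.19) or its own replicate 2 (1.32), and *Itga2b* in WBIR was called without Sham replicate 2 (1.61). With TMM scaling *Itga2b* was called in all 4 comparisons, at 1.66 after WBIR and 1.5 after RCI, and with MSC-EVs at 1.10 and 1.77.

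Of 10 megakaryocyte and platelet markers listed, 2 were in the table. Both were called higher in WBIR and in RCI, while *Itga2b* was called in RCI but not in WBIR. *Ppbp*, a chemokine of platelet granules, was higher than Sham by 2.20 ± 0.49 in WBIR (edgeR adjusted p 0.0012) and 2.31 ± 0.49 in RCI (0.00084). *Gp1bb*, a chain of the platelet von Willebrand factor receptor, was higher by 2.75 ± 0.47 in WBIR (0.00015) and 2.62 ± 0.47 in RCI (0.00022). Summed over both genes the counts were 308.4 to 955.3 in Sham and 1562 to 4547 over the irradiated groups. Whether *Itga2b* followed platelet content was not tested.

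**Figure D2:**
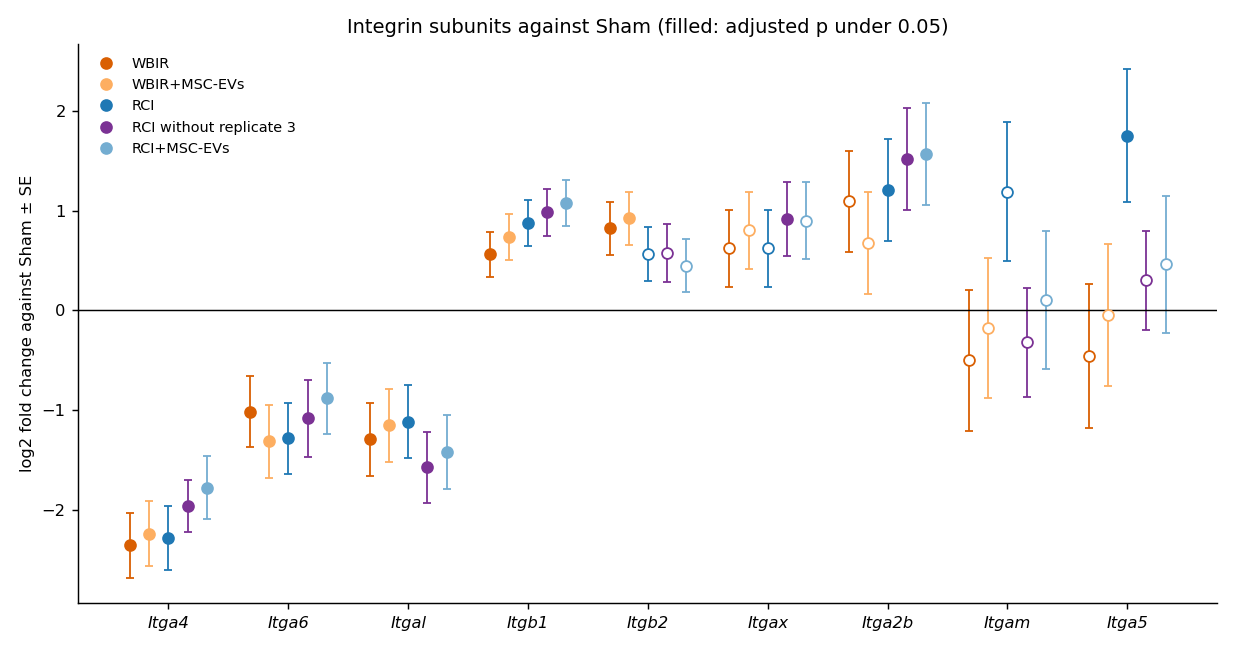
Log2 fold change against Sham (vertical axis, ± SE from edgeR) of each integrin gene in the 4 irradiated groups, with RCI also shown without replicate 3; filled points have an adjusted p under 0.05 and open points do not. *Itga4*, *Itga6* and *Itgal* lie below 0 in every series, and the RCI value of *Itga5* is 1.75 with replicate 3 and 0.30 without it.

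To see whether alpha and beta chains of a dimer shifted together, the log2 ratio of their counts was taken within each sample, which needs no scaling. The level of such a ratio depends on the probes, so only its differences between samples are described. *Itga4* over *Itgb1* was 0.29 to 1.16 in Sham and -3.26 to -2.11 in the 12 irradiated samples. *Itga6* over *Itgb1* was -0.60 to 0.0098 in Sham and -2.99 to -1.25 after irradiation. *Itgal* over *Itgb2* was -0.25 to -0.042 in Sham and -2.86 to -1.19 after irradiation. For these 3 pairs no irradiated sample reached the Sham range, RCI replicate 3 included. The mean difference was -2.98 for *Itga4* over *Itgb1*, -1.87 for *Itga6* over *Itgb1* and -1.94 for *Itgal* over *Itgb2*, each with a two-sided exact permutation p of 0.0022, the smallest that 455 assignments allow, and 0.012 after Benjamini-Hochberg adjustment over the 21 ratio tests.

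For the myeloid chains *Itgam* and *Itgax* beside the same beta chain, no difference passed the test. *Itgam* over *Itgb2* differed between irradiated and Sham samples by -0.38 (exact permutation p 0.57) and *Itgax* over *Itgb2* by 0.13 (exact permutation p 0.65), both with overlapping ranges. *Itga5* over *Itgb1* differed by -0.57 (exact permutation p 0.34). *Itgam* over *Itgal* was -4.73 to -2.26 in Sham and -2.21 to -0.11 after irradiation, a mean difference of 1.55 (exact permutation p 0.0022, adjusted 0.012). The gap between its ranges was narrow, and the difference was 0.82 (adjusted exact permutation p 0.35) without Sham replicate 1, whose *Itgam* count was the lowest of all. The ratios share genes with each other, and the irradiated samples pool 4 groups.

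**Figure D3:**
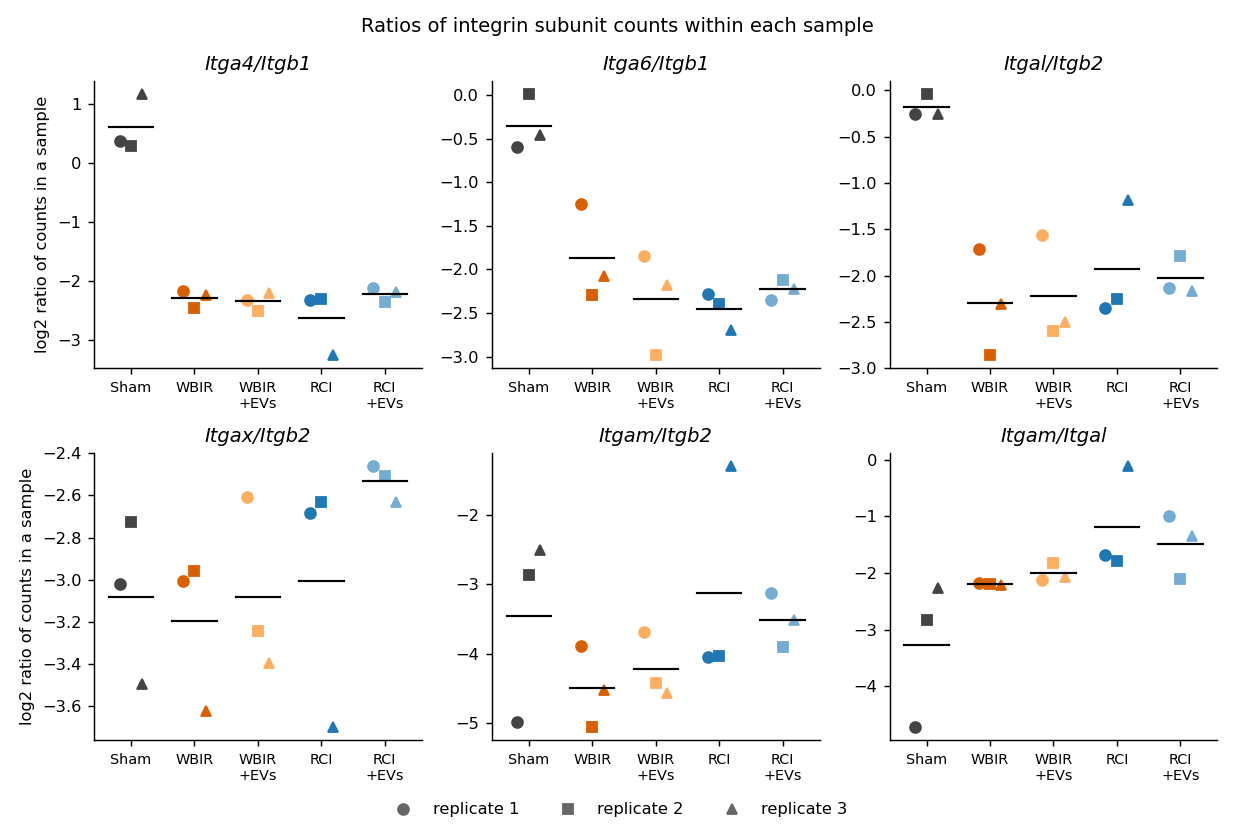
Within-sample log2 ratios of integrin subunit counts (vertical axis) in the 15 samples by group; symbols mark the replicate number and lines the group mean. In the top row every irradiated sample lies below every Sham sample, with mean differences of -2.98, -1.87 and -1.94, while *Itgax* and *Itgam* over *Itgb2* overlap with Sham.

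RCI was compared with WBIR, and no member was called by edgeR or limma, beside 0.704% of all genes (3 of 426). With the burn, RCI mice were also given anesthesia, morphine and resuscitation fluid, which the study does not describe for WBIR mice. The burn effect named below includes these, and their parts cannot be told apart. *Itga5* had the largest value, at 2.21 ± 0.67 (edgeR adjusted p 0.10), followed by *Itgam* at 1.69 ± 0.71 (0.24), and these were the 2 members at an unadjusted p under 0.05, beside 16.7% of all genes. No member separated the RCI from the WBIR samples without overlap, beside 27% of all genes. Without RCI replicate 3 they were 0.75 ± 0.49 (adjusted p 0.42) and 0.18 ± 0.54 (0.87). Without RCI replicate 1 *Itga5* was called, at 2.67, and DESeq2 called it at 2.20. *Itga5* passed the filter on low counts only through RCI replicate 3, so its tests of RCI draw on the value that admitted it. Averaged over mice with and without MSC-EVs, the burn effect was 1.36 ± 0.47 for *Itga5* (adjusted p 0.088) and -0.37 ± 0.19 for *Itgb2* (0.22), and no member was called, beside 3.05% of all genes (13). Only *Itga5* had an unadjusted p under 0.05 there, beside 25.8% of all genes. Here too *Itga5* was called without RCI replicate 1 (1.59), and without RCI replicate 3 it was 0.63. In the within-sample ratios, *Itgam* over *Itgal* was higher in the 6 RCI samples than in the 6 WBIR samples by 0.76 (exact permutation p 0.015, adjusted 0.063) and *Itgam* over *Itgb2* by 1.04 (exact permutation p 0.030, adjusted 0.105). Both differences were smaller without RCI replicate 3, at 0.51 for *Itgam* over *Itgal* and 0.63 for *Itgam* over *Itgb2*. Without RCI+MSC-EVs replicate 2 *Itgam* over *Itgal* was 0.91 (adjusted exact permutation p 0.021). Without RCI replicate 3 *Itgax* over *Itgb2* was higher by 0.56 (adjusted exact permutation p 0.042).

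Treatment with MSC-EVs gave no called member by edgeR in either injury, and no gene of the panel was called (0% of 426). DESeq2 and limma also called no member, and no member had an unadjusted p under 0.05 in WBIR+MSC-EVs against WBIR, in RCI+MSC-EVs against RCI or in their average, beside 2.58%, 3.29% and 3.29% of all genes (11, 14 and 14 of 426). The same held for the difference between the injuries (2.58%), and no member was free of overlap between WBIR+MSC-EVs and WBIR, beside 8.92% of all genes. After WBIR, *Itga2b* had a log2FC of -0.42 ± 0.50 with MSC-EVs (95% interval -1.53 to 0.69) and *Itga5* 0.41 ± 0.71 (-1.16 to 1.98). After RCI, *Itga4* stood at 0.50 ± 0.31 (95% interval -0.19 to 1.19, adjusted p 0.99), with all RCI+MSC-EVs samples (374 to 425) above all RCI samples (145 to 355). The groups also did not overlap for *Itgb2*, which had 2165 to 2285 scaled counts with MSC-EVs and 2372 to 2465 without, so 2 of the 9 members did not overlap, beside 10.8% of all genes. *Itga5* was at -1.29 ± 0.63 (-2.69 to 0.11) and *Itgam* at -1.09 ± 0.69 (-2.63 to 0.45) with MSC-EVs after RCI, and both turned above 0 without RCI replicate 3, to 0.17 and 0.43. Without that sample *Itga4* was at 0.18. Averaged over both injuries the MSC-EV effect was 0.31 ± 0.22 for *Itga4* (-0.18 to 0.80) and -0.44 ± 0.47 for *Itga5* (-1.5 to 0.62), and the difference between the injuries was largest for *Itga5*, at -1.70 ± 0.94 (adjusted p 0.998), which was -0.24 without RCI replicate 3. These intervals leave room for changes of more than 1 log2 unit in the more variable genes, and no ratio of subunits differed with MSC-EVs (adjusted exact permutation p from 0.665 to 0.97).

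RCI replicate 3 was singular in how its integrins moved against each other. Compared with the mean of the other RCI samples on the log2 scale, *Itgam* was higher by 2.70 and *Itga5* by 2.62, ranking 10 and 11 of the 426 genes, and *Itgal* by 1.08, ranking 33. *Itga4* stood at -1.27, *Itga2b* at -1.21, *Itgax* at -1.07 and *Itga6* at -0.70, beside a median of -0.43 over all genes, while *Itgb2* was at -0.028. In this sample 7 neutrophil markers summed to 1478, against 1998 and 2043 in the other RCI samples. *S100a8* and *S100a9* had the highest mean counts of that list (2810 and 2879), so they weigh most in the sum. Single neutrophil markers of this sample are not given, and their part in the high *Itgam* was not tested. Among macrophage markers, of which these were chosen after their values were seen, *Marco*, a scavenger receptor, had 30247 scaled counts against 3501 and 5125, while *Csf1r* had 1763 against 5022 and 4048. Sham replicate 2 differed in another way, with all 9 members above the mean of the other Sham samples, from 0.22 for *Itga4* to 1.75 for *Itgam*, beside a median of 0.56.

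**Figure D4:**
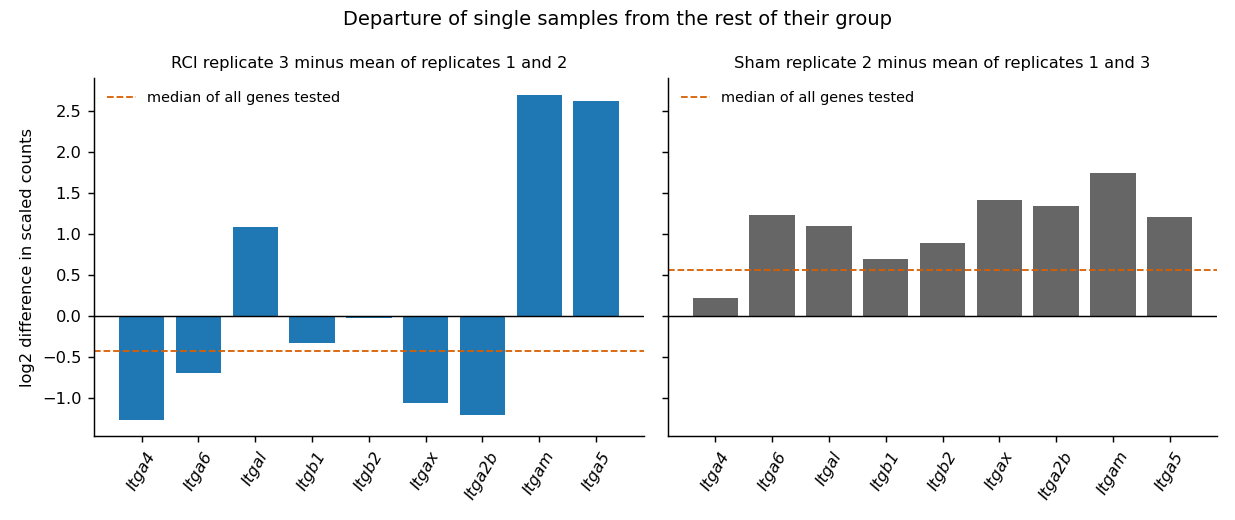
Log2 difference in scaled counts (vertical axis) of a sample from the mean of the other 2 of its group, for RCI replicate 3 (left) and Sham replicate 2 (right), with the median of all tested genes dashed. RCI replicate 3 has *Itgam* and *Itga5* above 2.5 and 6 members below 0 (*Itgb2* at -0.028), while Sham replicate 2 has all 9 above 0.

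Genes around the integrins were followed in 4 lists. Of 19 integrin ligands and counter-receptors, 9 were in the table and 6 were tested, and *Icam1* was called higher in WBIR (1.05 ± 0.34, edgeR adjusted p 0.012) and *Icam2* lower in WBIR (-2.89 ± 0.26) and RCI (-2.29 ± 0.25). *Vcam1* and *C3* were singled out after their values were seen. *Vcam1*, the VLA-4 ligand, had 1.55 ± 0.67 in WBIR (0.053) and was called in WBIR+MSC-EVs (1.6) and RCI+MSC-EVs (1.93). It was not called in RCI, and no gene was called with MSC-EVs against untreated samples of either injury. *C3*, source of the Mac-1 ligand iC3b, was called in RCI (2.49 ± 0.50, 0.00056) and had 0.51 ± 0.48 in WBIR. It was not called higher in RCI+MSC-EVs, and neither *C3* nor *Vcam1* is given here without RCI replicate 3. Of 5 tested selectins and ligands, 3 fell and 1 rose in both WBIR and RCI. In WBIR the log2FC was -2.23 ± 0.58 for *Selplg*, the P-selectin ligand, -1.68 ± 0.41 for *Spn* (CD43) and 1.66 ± 0.28 for *Cd44*, a hyaluronan receptor.

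Among 10 tested genes of integrin activation and signalling, 4 rose and 4 fell in WBIR, and 4 rose and 5 fell in RCI. *Fcer1g*, an adaptor through which myeloid integrins signal, rose by 2.85 ± 0.26 in WBIR. The kinase *Src*, which binds integrin tails, rose by 1.99 ± 0.32, and the T cell kinases *Zap70* and *Lck* had log2FC of -2.69 ± 0.52 and -1.99 ± 0.34. Of 16 other adhesion genes and integrin partners, 3 rose and 9 fell in WBIR, led by *Plaur*, the urokinase receptor and an integrin partner (-3.40 ± 0.38), *Ceacam1* (-2.97 ± 0.48) and the T cell adhesion genes *Cd6* (-2.94 ± 0.38) and *Cd2* (-2.75 ± 0.37). In RCI 3 rose and 7 fell. In WBIR the median log2FC was -0.07 for ligands, -1.68 for selectins, -0.23 for signalling and -0.98 for the other adhesion genes, beside -0.74 over all genes tested. Without RCI replicate 3 the RCI counts were 4 and 4 for signalling, 4 and 7 for the other adhesion genes and 1 and 3 for selectins. Of the ligands, 2 rose and 1 fell without that sample, in place of 1 and 1, and with TMM scaling 2 rose and 1 fell in WBIR.

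For each member, the genes with the most similar pattern were found by Pearson's r of log2(scaled count + 1) among the other tested genes, as a description without a test. Over all 15 samples these were *Il17ra* for *Itga4* (0.972), *Tnfrsf11a* for *Itgb1* (0.968), *Spn* for *Itga6* (0.962), *Smad3* for *Itgal* (0.931), *Ppbp* for *Itga2b* (0.919), *Cd274* for *Itga5* (0.872), *Tlr3* for *Itgax* (0.864), *Il1b* for *Itgam* (0.861) and *Src* for *Itgb2* (0.850). These values include the difference between Sham and irradiated samples. Within the 12 irradiated samples, *Itga4* was most like *Cd4* (0.979), the helper T cell coreceptor, and *Itga2b* like *Ppbp* (0.954). *Itgb1* was most like *Ptprc* (0.969), the pan-leukocyte CD45, and *Itga6* like *Spn* (0.939). *Itga5* went with *Ccl12* (0.973) and *Itgam* with *Cfb* (0.906) there, and *Itgam* and *Itga5* with each other (0.893). Over the 11 irradiated samples without RCI replicate 3 these were 0.917, 0.48 and 0.486. *Ccl12* had 315 scaled counts in RCI replicate 3 and at most 71.3 in the other irradiated samples, and *Cfb* 1155 and at most 193, and both were highest in that sample. For the gene ranked next, r ran from 0.821 to 0.961 over 15 samples and from 0.785 to 0.965 over the irradiated samples. All points share the scaling of their sample.

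**Figure D5:**
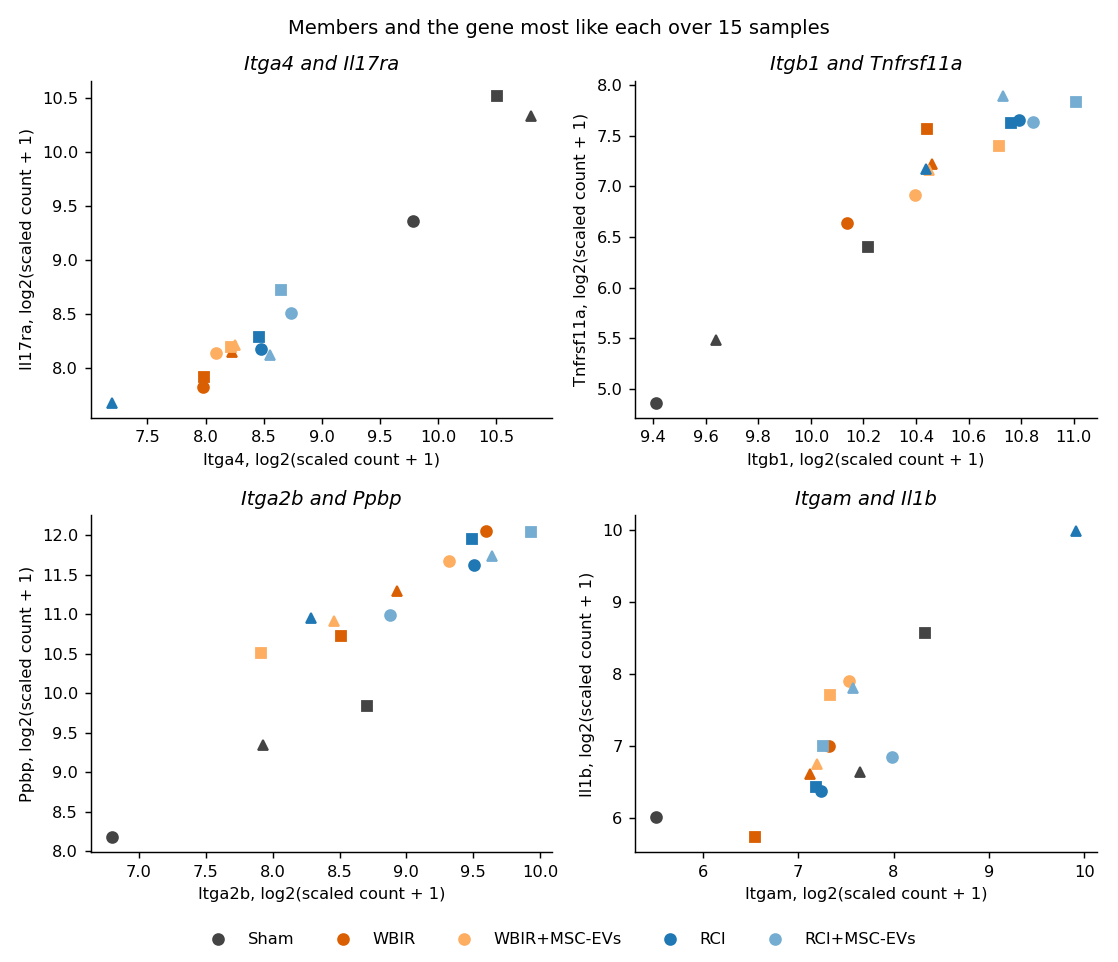
Each panel plots log2(scaled count + 1) of a member (horizontal axis) against that of its most similar gene over 15 samples (vertical axis), coloured by group with symbols for replicates 1 (circle), 2 (square) and 3 (triangle). *Itga4* with *Il17ra* (r 0.972) separates Sham from irradiated samples, and in *Itgam* with *Il1b* (r 0.861) the point at the upper right is RCI replicate 3.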

How the data were processed

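The authors lysed red blood cells, isolated spleen RNA, hybridised it to the nCounter panel and processed the data with nSolver. The deposited table holds counts of barcodes that were not normalized, as its whole numbers and unequal sample totals show. No control probes were used here, so no background was subtracted. Samples were grouped by their labels, and whether replicates of a group are separate mice is not given in the sources used here, so p-values measure the spread between these samples. Each sample was scaled to the geometric mean of 14 reference genes. Of 547 endogenous genes, the 426 that averaged 20 or more counts entered the quasi-likelihood test of edgeR 4.0.16 (R 4.3.3, robust glmQLFit and glmQLFTest on all 15 samples, 10 residual degrees of freedom, common dispersion 0.110), two-sided, with Benjamini-Hochberg adjustment within each comparison. The standard error was the absolute log2FC over the square root of F. Levels with few counts are limited by counting error, others by the spread between 3 samples.

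Within-sample ratios were tested by exact permutation of samples, within MSC-EV status or injury where 2 treatments or injuries were compared. Scripts were tested on simulated data. The members and gene lists were chosen with earlier results of these data known. Named were all members, up to 4 called genes per list with the largest change in WBIR against Sham, and the genes most like members. The last were named for all members over 15 samples and for some members over the irradiated samples. The values of 1 gene that this rule names are not reported here. Alternatives were TMM and median-of-ratios scaling, the 7 least varying reference genes, no filter, DESeq2 1.42.0, limma 3.58.1 with a pseudocount of 10, the compared groups alone, a replicate block and leaving out each sample. Deviations of same-numbered samples with and without MSC-EVs were positively correlated within each injury (r 0.676, 0.388 and 0.241 after WBIR, 0.261, 0.330 and 0.521 after RCI). Some differently numbered samples correlated more, as WBIR replicate 2 with WBIR+MSC-EVs replicate 3 (0.51) and RCI replicate 1 with RCI+MSC-EVs replicate 2 (0.346). Others were negative, as WBIR replicate 2 with WBIR+MSC-EVs replicate 1 (-0.596). These values do not settle whether the numbers pair the samples. A block by number within each injury was added after seeing the data. Gene names are those of the table, all 9 of them current in RefSeq. Promoter sequences are from RefSeq, assembly GRCm38.p6.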

Additional observations from a re-analysis of the deposited data

How the results depend on the processing

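Of 426 genes tested, the number of members called depended mainly on the samples in the fit and on the scaling. With only the compared groups in the fit it was 2 in WBIR and 3 in RCI against Sham, in place of 5 and 6. Leaving out single samples gave 3 to 6 members in WBIR, 5 to 6 in WBIR+MSC-EVs, 4 to 7 in RCI and 4 to 6 in RCI+MSC-EVs against Sham, 0 to 1 in RCI against WBIR and 0 to 1 for the averaged burn effect, and 0 to 0 for every MSC-EV comparison. DESeq2 called 1 member in RCI against WBIR and 1 for the averaged burn effect (*Itga5*), and TMM scaling called 1 for the latter (*Itgb2*). TMM scaling called 8 members in RCI and 7 in RCI+MSC-EVs against Sham. With the replicate number as a block over all groups, the members called against Sham numbered 5 after WBIR and 4 after RCI, and with MSC-EVs 6 and 5. That block lost *Itga5* (1.49, adjusted p 0.061) and *Itga2b* (1.17, 0.071) in RCI and *Itga6* (-0.87, 0.052) in RCI+MSC-EVs, and gained *Itgax* in WBIR+MSC-EVs (0.93, 0.017) and RCI+MSC-EVs (1.02, 0.010). The block by number within each injury, where pairing is not established, called 0 members in the MSC-EV comparisons, as the unblocked fit did. Whether the numbers pair samples across Sham and injuries is not given in the sources used here.

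Directions turned in genes that were not called. In WBIR against Sham, *Itga5* was 0.026 with TMM and 0.10 with median-of-ratios scaling, and *Itgam* 0.081 and 0.15, with -0.98 to 0.092 when samples were left out. In WBIR+MSC-EVs against Sham, *Itga5* was 0.33 and 0.43 with these scalings and -0.32 to 0.37 when samples were left out, and *Itgam* 0.28 and 0.37, 0.15 with limma, and -0.66 to 0.41. *Itgam* ran from -0.32 to 1.79 in RCI against Sham when samples were left out and, in RCI+MSC-EVs against Sham, from -0.38 to 0.70, with -0.073 by the 7 least varying reference genes. In RCI+MSC-EVs against RCI, *Itga5* ran from -1.75 to 0.17 and *Itgam* from -1.49 to 0.43, and the averaged MSC-EV effect of *Itga5* from -0.67 to 0.29, each with the highest value without RCI replicate 3.

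Leaving out a Sham sample left 91 assignments, whose smallest exact permutation p is 0.011. The adjusted exact permutation p of *Itga4* and *Itga6* over *Itgb1* and of *Itgal* over *Itgb2* was then 0.058 or 0.077. That of *Itgam* over *Itgal* was 0.058 without Sham replicate 2 or 3. Without Sham replicate 1 it was 0.35, a loss beyond the limit set by the fewer assignments. The differences between irradiated and Sham samples stayed at -3.14 to -2.70 for *Itga4* over *Itgb1*, -2.0 to -1.69 for *Itga6* over *Itgb1*, -2.02 to -1.87 for *Itgal* over *Itgb2* and 0.82 to 2.06 for *Itgam* over *Itgal*. Those of *Itgam* over *Itgb2* (-1.15 to 0.087) and *Itgax* over *Itgb2* (-0.081 to 0.30) turned without Sham replicate 3. Between MSC-EVs and untreated, sign changes occurred for *Itgal* over *Itgb2* (-0.16 to 0.17), *Itgam* over *Itgb2* (-0.31 to 0.44), *Itga5* over *Itgb1* (-0.53 to 0.23), *Itga6* over *Itgb1* (-0.23 to 0.064) and *Itgam* over *Itgal* (-0.20 to 0.27), and between RCI and WBIR for *Itga4* over *Itgb1* (-0.17 to 0.057). The low counts of *Itga5* limit its precision. The cause of these shifts was not tested.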
